A study of Mus musculus with 18 samples.

Results

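Six2, Six4, Six5, Eya1, Eya2, Eya3, Eya4, Osr1 and Osr2 were followed through a cardiac differentiation in which the Hedgehog transcription factor GLI1 was switched on for 1 day. The 9 genes were taken by symbol from a table of 23337 genes. All 9 passed the filter on low counts that left 14892 genes to test. RNA came from the mouse embryonic stem cell line GLI1-FTA of the A2Lox.cre strain, differentiated toward cardiomyocytes, and was sequenced as polyA mRNA. Every sample, controls included, comes from this 1 line. Untreated controls comprise 4 libraries at D5, 3 at D6, 2 at D8 and 2 at D12. Samples with GLI1 overexpression (OE) had 500 ng/ml doxycycline during the 24 hours between D5 and D6; 3 were harvested at D6, and after a wash 2 were harvested at D8 and 2 at D12. No group received doxycycline without induction of GLI1, so effects of the drug and of the gene cannot be told apart. The labels call the D5 and D6 cells cardiac progenitors and the D8 and D12 cells immature cardiomyocytes. Libraries are named below by the number their count column carries.

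Six2, Six4 and Six5 encode homeodomain transcription factors of the sine oculis family, and Eya genes encode their coactivators, which bind the homeodomain proteins and also carry a phosphatase domain. The 2 families act together in progenitors of kidney, skeletal muscle, sensory placodes and the pharyngeal region, where they sustain progenitor growth and survival. SIX2 keeps nephron progenitors undifferentiated. OSR1 and OSR2 are zinc finger transcription factors of the odd-skipped family: OSR1 marks intermediate and lateral plate mesoderm and is needed in the second heart field for atrial septation, and OSR2 acts in limb, palate and kidney.

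Of the 9 genes, 5 have an entry in the RefSeq promoter table (GRCm38.p6): Six2, Six4, Six5, Eya3 and Eya4. Six2 and Six4 are shown because they are homeobox genes of 1 family in the same cells, of which Six2 rose after the GLI1 pulse and Six4 was not called. Each sequence is the 250 bases before the annotated start, read 5′ to 3′ on the minus strand, at chr17:85688255-85688504 for Six2 and chr12:73113246-73113495 for Six4. Capitals mark the GC box GGGCGG on either strand, a general promoter motif.
Six2: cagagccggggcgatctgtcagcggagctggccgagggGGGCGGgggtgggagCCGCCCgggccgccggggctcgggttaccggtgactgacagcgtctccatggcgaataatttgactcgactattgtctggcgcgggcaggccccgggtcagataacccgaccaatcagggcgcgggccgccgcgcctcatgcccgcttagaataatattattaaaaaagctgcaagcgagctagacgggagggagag
Six4: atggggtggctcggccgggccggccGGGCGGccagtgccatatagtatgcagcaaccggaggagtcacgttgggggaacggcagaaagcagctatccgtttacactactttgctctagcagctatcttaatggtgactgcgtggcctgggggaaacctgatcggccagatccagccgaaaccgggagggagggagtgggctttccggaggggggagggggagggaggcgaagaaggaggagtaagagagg
The Six2 stretch holds 2 GC boxes and the Six4 stretch holds 1. Across all 32851 windows of 300 bases in the table, 35.7% hold a GC box. The GLI consensus GACCACCCA, searched on both strands, has 0 matches in the windows of the 5 genes and occurs in 0.253% of all windows. Its inner core CCACCCA, which overlaps it, also has 0 matches there and occurs in 9.3% of all windows. These letters were searched in these windows only, and more distant sequence was not searched.

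The induced gene checks the labels. Gli1 stood at 909 ± 134 CPM (counts scaled to library size, SD, n = 3) in D6 GLI1 OE libraries and at 13.99 ± 7.28 CPM (SD, n = 3) in D6 controls. It was back at 1.19 ± 0.373 CPM (SD, n = 2) in D8 GLI1 OE libraries, against 0.964 ± 0.300 CPM (SD, n = 2) in D8 controls. Total counts ran from 18470785 to 26184339 per library. D5 libraries 1 and 2 differed far less than other D5 pairs (chi-square per gene 6.86) and were kept as 2. Among replicate pairs, D8 GLI1 OE libraries 14 and 18 differed most (chi-square per gene 122). The labels do not say that replicates were separate cultures. The p-values then reflect only how these libraries vary, possibly for technical reasons.

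At D5, before the pulse, Eya3 was the most abundant of the 9 per unit of gene length. In the authors' deposited TPM values, which are scaled for transcript length, it stood at 43.3 ± 1.97 TPM (SD, n = 4). Six5 followed at 12.4 ± 1.40 TPM and Six4 at 10.8 ± 1.06 TPM, and their libraries overlapped. Eya1 stood at 6.17 ± 3.90 TPM, Six2 at 4.32 ± 2.38 TPM, Osr1 at 4.32 ± 1.83 TPM and Eya4 at 3.05 ± 1.39 TPM, with ranges that overlapped one another. Eya2 was near the lower limit, between 0 and 0.235 TPM, and Osr2 was listed at 0 in all 4 libraries, although the count table holds 4 Osr2 reads over the 4 D5 columns. The order therefore separates Eya3 from the Six4 and Six5 pair, and that pair from Six2, Osr1 and Eya4. Neighbours within these sets did not differ beyond their spread. Eya1 was not clearly set apart from Six4: its highest library (9.71 TPM) lay just below the lowest of Six4 (9.84 TPM). Eya1 itself was uneven at D5, at 18.4 and 18.9 CPM in libraries 1 and 2 but 4.93 and 6.12 CPM in libraries 3 and 4.

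**Figure D1:**
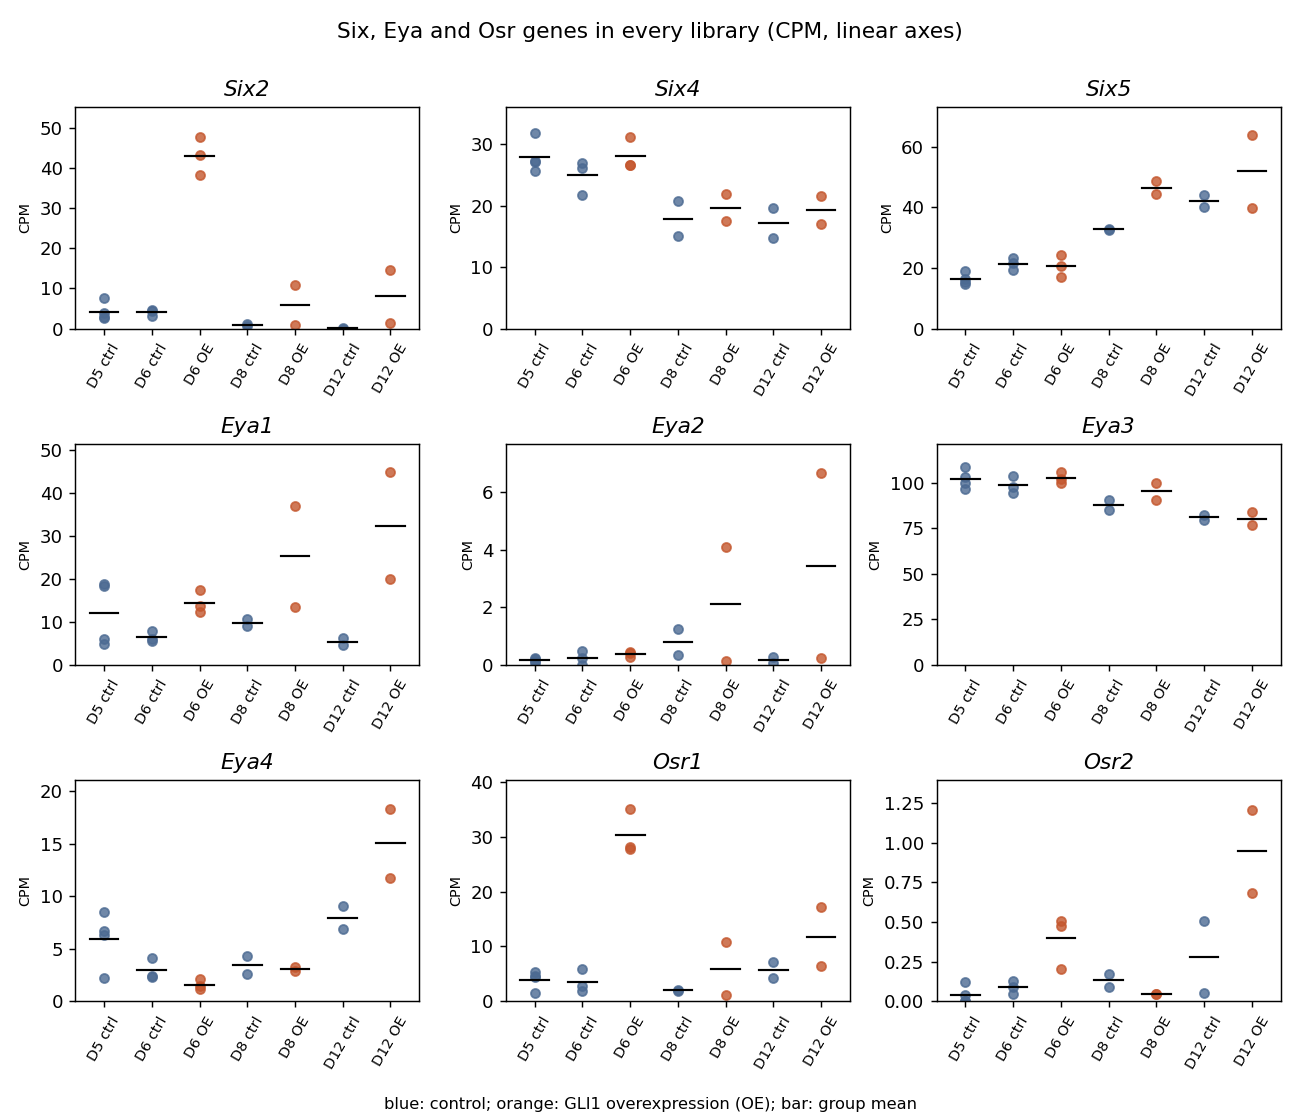
Each point is 1 library, in CPM on a linear axis that starts at 0, for each of the 9 genes. Groups run from D5 to D12 with controls in blue and GLI1 OE in orange, and bars are group means; Six2 and Osr1 stand out in the D6 GLI1 OE group, at 43.0 and 30.3 CPM on average.

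The first comparison asked which of these genes changed at the end of the GLI1 pulse. At D6, 2 of the 9 were higher in GLI1 OE than in control libraries by edgeR's quasi-likelihood test (Benjamini-Hochberg adjusted p under 0.05) and 0 were lower. Over all 14892 genes tested, 3.02% were higher and 1.12% were lower. Both genes that rose, Six2 and Osr1, are transcription factor genes of mesodermal progenitors.

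Six2 stood at 3.07, 4.39 and 4.68 CPM in D6 control libraries 11, 15 and 3, and at 38.1, 43.1 and 47.7 CPM in GLI1 OE libraries 4, 12 and 16. Every GLI1 OE library was far above every control. The log2 fold change was 3.41 ± 0.83 (SE), with an adjusted p of 0.0314 by edgeR. Leaving out any 1 of the 6 libraries kept the change between 3.24 and 3.51 but raised the adjusted p to between 0.0653 and 0.125, past the threshold.

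Osr1 stood at 5.91, 2.71 and 1.96 CPM in control libraries 11, 15 and 3, and at 35.0, 28.1 and 27.7 CPM in GLI1 OE libraries 12, 16 and 4. The groups did not overlap, and the adjacent-numbered libraries 11 and 12 were the highest of their groups. The log2 fold change was 3.10 ± 0.69 (SE), with an adjusted p of 0.0185 by edgeR. It was no longer called when control 3, control 15, OE 12 or OE 16 was left out, at an adjusted p that reached 0.0994.

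Eya1, the coactivator gene that works with Six2 in kidney, was at 5.56 to 7.77 CPM in D6 controls and 12.3 to 17.3 CPM in GLI1 OE libraries. The groups did not overlap, but the log2 difference of 1.16 ± 0.51 (SE) was not called, with an adjusted p of 0.278 by edgeR. Fitted on the D6 libraries alone, Eya1 was called, with an adjusted p of 0.0136. That fit called 1254 of 13638 genes, against 616 of 14892 in the main fit. The authors' deposited table for D6 also gives Eya1 an adjusted p below the threshold, 4.53e-06, at a log2 fold change of 1.17.

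Eya4, a family member expressed in muscle and the inner ear, was at 2.29, 2.42 and 4.09 CPM in D6 controls and at 1.202, 1.49 and 2.09 CPM in GLI1 OE libraries. All GLI1 OE values were the lower ones, by a log2 difference of -0.88 ± 0.43 (SE) and an adjusted p of 0.344 by edgeR. Osr2 rested on 1 to 3 reads per control library and 5 to 11 reads per GLI1 OE library. Its log2 difference was 2.06 ± 0.84 (SE), with an adjusted p of 0.228 by edgeR. It reached 10 reads only in D6 GLI1 OE libraries 12 and 16, D12 control 9 and D12 GLI1 OE libraries 10 and 20. Osr2 thus passed the filter on low counts mainly through GLI1 OE groups, so the filter favoured its rises into them. Six2, Osr1, Eya1 and Osr2 make 4 of 9 genes higher without overlap, where 13.2% of all genes were, and Eya4 makes 1 of 9 lower without overlap, where 13.8% of all genes were.

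The other 4 genes differed little at D6. Eya3 was at 98.6 CPM in controls and 103 CPM in GLI1 OE libraries on average. Six4, a homeobox gene active in muscle and sensory progenitors, was at 24.95 and 28.2 CPM, and Six5, a homeobox gene next to the myotonic dystrophy locus, at 21.3 and 20.7 CPM. Eya2, a coactivator gene of muscle and placode progenitors, had 0 to 11 reads per D6 library. None of these 4 was called, with adjusted p of 0.703 to 0.958 by edgeR, and the groups overlapped for each.

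**Figure D2:**
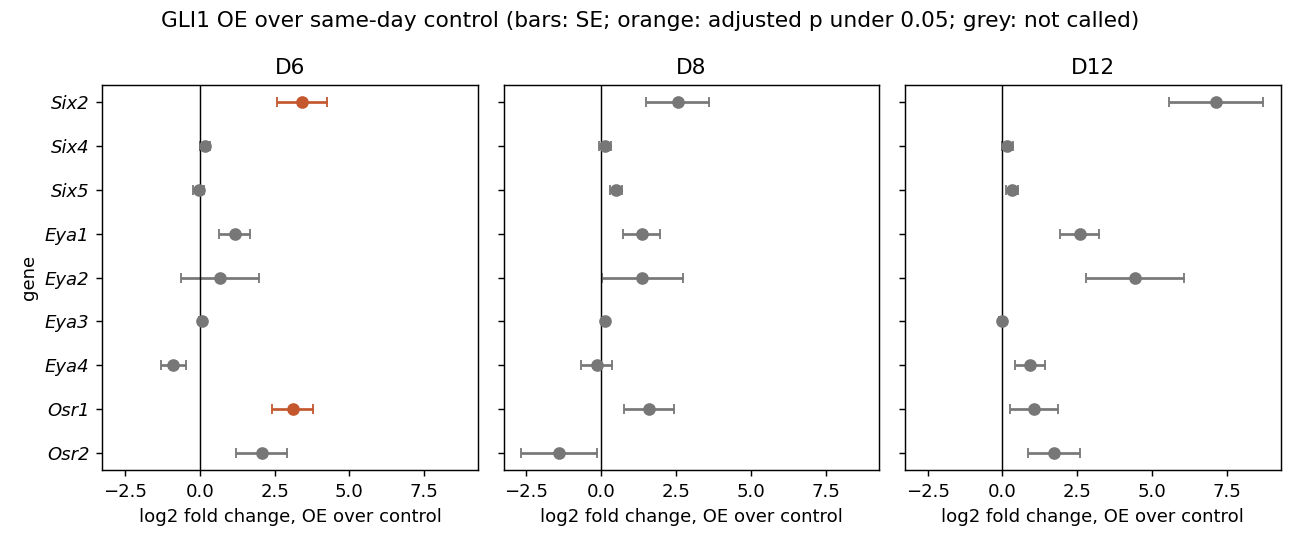
Points give the log2 fold change of GLI1 OE over same-day control at D6, D8 and D12 for the 9 genes, with bars of 1 SE from the edgeR fit. Orange marks the calls, which are Six2 and Osr1 at D6; the point for Six2 at D12 lies at 7.13 but rests on 2 control reads.

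The second comparison asked what was left of these differences after the doxycycline was washed out. At D8, 0 of the 9 genes were called by edgeR in either direction, and 0% of all genes were higher and 0% lower. Before adjustment, 886 genes lay under p of 0.05; DESeq2 called 40. Of the 9 genes, Six2, Six5 and Eya1 lay under an unadjusted p of 0.05 (3 in all), and 0 were called by DESeq2. At D12, 0 of the 9 were called by edgeR, again with 0% of all genes higher and 0% lower. Before adjustment, 840 genes lay under p of 0.05; calls numbered 14 by DESeq2 and 1 by limma-voom. Of the 9 genes, Six2, Eya1 and Eya2 (3 in all) lay under an unadjusted p of 0.05, and DESeq2 called Six2 and Eya1, with adjusted p of 0.000656 and 0.0309.

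Six2 separated the late GLI1 OE libraries from one another. At D8 it stood at 1.24 and 0.741 CPM in control libraries 13 and 17, and at 0.833 and 10.9 CPM in GLI1 OE libraries 14 and 18. Library 14 lay among the controls and library 18 was 13 times as high as library 14. The log2 difference was 2.56 ± 1.06 (SE), with an adjusted p of 0.799 by edgeR, and it turned to -0.24 without library 18. At D12 the control libraries 9 and 19 held 0 and 2 Six2 reads, and GLI1 OE libraries 10 and 20 held 25 and 327, or 1.42 and 14.6 CPM. Both D12 GLI1 OE libraries were above both controls. The pooled ratio was 170 with a 95% exact interval of 46.7 to 1410, which covers counting error only, and the adjusted p was 0.492 by edgeR. Without library 20 the fitted log2 difference fell from 7.13 to 4.64.

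Eya1 was higher without overlap at both later days. At D8 it stood at 10.6 and 9.11 CPM in controls 13 and 17 and at 13.4 and 37.0 CPM in GLI1 OE libraries 14 and 18. At D12 it stood at 6.21 and 4.61 CPM in controls 9 and 19 and at 19.9 and 44.7 CPM in GLI1 OE libraries 10 and 20. The D12 difference was 2.58 ± 0.65 (log2, SE), with an adjusted p of 0.492 by edgeR, and it stayed between 1.88 and 3.05 whichever library was left out. The D8 difference was 1.36 ± 0.62 (log2, SE), with an adjusted p of 0.83 by edgeR, and it was 0.45 without library 18. The authors' deposited table for D12 lists Eya1 at a log2 fold change of 2.64 with an adjusted p of 1.02e-06, and their table for D8 lists it at 1.43 with 0.650.

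Eya2 and Osr1 were high in 1 late GLI1 OE library per day. Eya2 had 8 and 29 reads in D8 controls 13 and 17, 3 in GLI1 OE library 14 and 90 in library 18. At D12 it had 1 and 5 reads in controls 9 and 19, 4 in GLI1 OE library 10 and 149 in library 20. Libraries 18 and 20 thus stood apart, and libraries 14 and 10 did not rise above their controls. Osr1 likewise was at 1.99 and 1.96 CPM in D8 controls, 1.16 CPM in library 14 and 10.8 CPM in library 18. At D12 Osr1 was at 7.12 and 4.30 CPM in controls, 6.36 CPM in library 10 and 17.2 CPM in library 20. Without library 18 the D8 log2 differences turned to -2.50 for Eya2 and -0.77 for Osr1, and without library 20 those at D12 were 0.53 and 0.17.

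Eya4 and Osr2 were higher in both D12 GLI1 OE libraries than in both controls, without a call. Eya4 was at 9.04 and 6.84 CPM in controls 9 and 19 and at 11.8 and 18.3 CPM in GLI1 OE libraries 10 and 20, a log2 difference of 0.92 ± 0.50 (SE) with an adjusted p of 0.912 by edgeR. Osr2, which passed the filter mainly through GLI1 OE groups, had 10 and 1 reads in the controls. It had 12 and 27 in the GLI1 OE libraries, with an adjusted p of 0.895 by edgeR. With Six2 and Eya1, 4 of 9 genes were higher without overlap at D12, where 17.9% of all genes were, and 0 were lower, where 16.4% were. At D8, Six5, Eya1 and Eya3 make 3 of 9 higher without overlap (17% of all genes), and Osr2, with 2 reads against 6, makes 1 lower (15.2% of all genes).

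Library 18 was the highest of the 4 D8 libraries for 7 of the 9 genes, and library 20 was the highest of the 4 D12 libraries for 9 of 9. The share of all genes that were highest in these libraries was not computed, so a trait of the whole library cannot be told apart from a trait of the 9 genes. The same libraries were the lowest of their day for cardiomyocyte markers and the highest for skeletal muscle and somite markers, but not every list set them apart. Over the intermediate mesoderm markers, library 18 held 244 CPM against 256 CPM in control 17, and library 20 held 463 CPM against 483 CPM in control 9. Over the placode and neural crest markers, both libraries lay within the range of the others of their day. On 2 further lists they parted. Over paralogues and partners of the 9 genes, library 18 was lowest at D8 (8.86 CPM, others 12.6 to 50.3). Library 20 was highest at D12 (38.9 CPM, others 15.7 to 26.8). Over second heart field genes, library 18 was also lowest (965 CPM, others 986 to 1320). Library 20 was again highest (1084 CPM, others 799 to 997). Summed over 8 cardiomyocyte markers, D8 controls held 15447 and 6321 CPM, GLI1 OE library 14 held 13137 CPM and library 18 held 1167 CPM. At D12 controls held 4705 and 12187 CPM, library 10 held 6019 CPM and library 20 held 2978 CPM. None of the 8 was at 0 in any group, D5 and D6 included, so their presence does not tell the labelled cell types apart. Over 9 skeletal muscle and somite markers, libraries 18 and 20 held 52.0 and 75.9 CPM, and the other 6 late libraries held 14.4 to 22.4 CPM. Meox1, a somite transcription factor gene, made up 49.2 and 69.6 CPM of these sums, while Myf5, Myod1 and Myf6 were at 0 in both D8 groups and D12 controls, and Myf6 was also at 0 in D12 GLI1 OE libraries. Myog, a muscle differentiation factor gene, was higher in both D12 GLI1 OE libraries, at 2.01 and 2.21 CPM (84 reads in all), than in D12 controls, which held 1 read; its unadjusted p was 0.00172 and its adjusted p 0.492 by edgeR. In bulk RNA, more cells of a type and more RNA per cell cannot be told apart, and the part of cell makeup in these results was not tested.

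**Figure D3:**
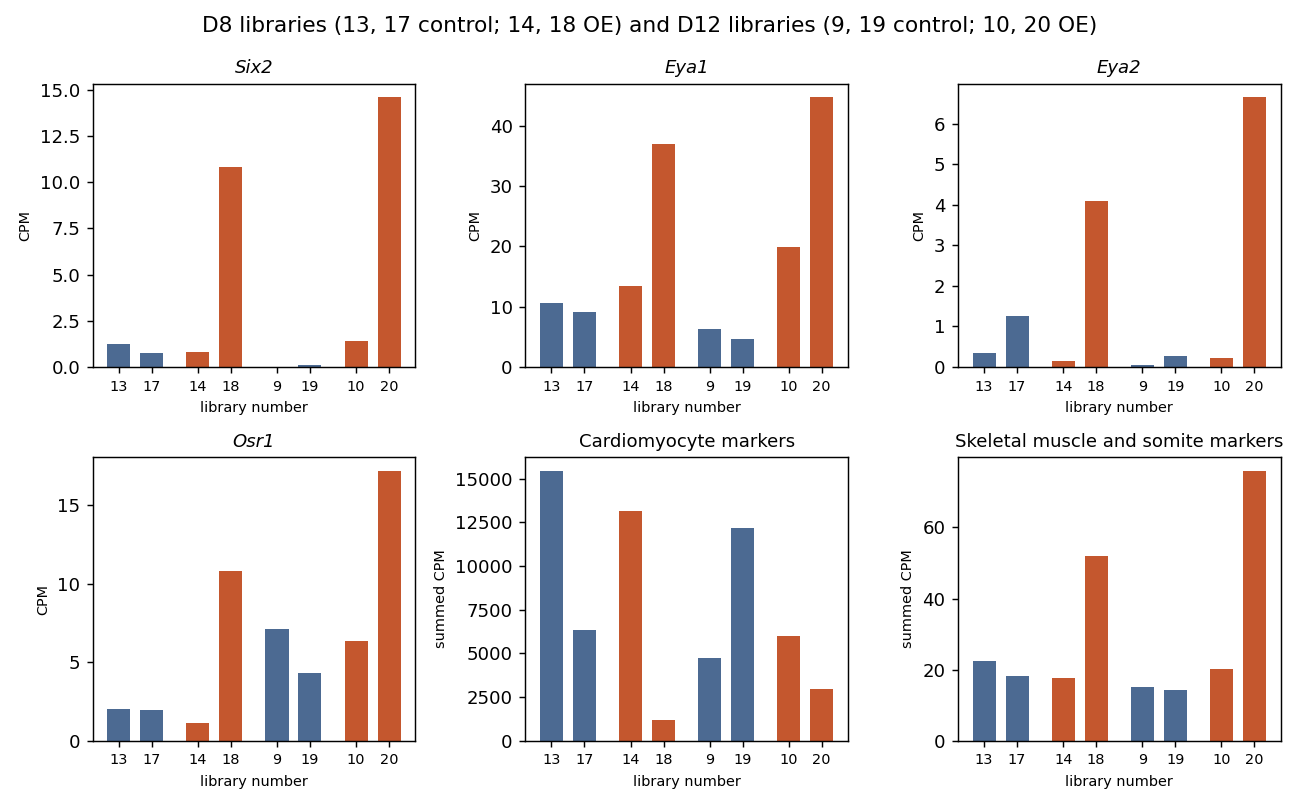
Bars give each D8 and D12 library's level of Six2, Eya1, Eya2 and Osr1 (CPM) and its summed CPM over the cardiomyocyte and the skeletal muscle and somite markers, controls in blue and GLI1 OE in orange. Libraries 18 and 20 are highest for the 4 genes and the somite sum, and lowest of their day for the cardiomyocyte sum, at 1167 and 2978 CPM.

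The effects of GLI1 OE were also compared between days directly. For the D8 effect minus the D6 effect, 0 of the 9 genes were called, where 0.0672% of all genes were higher and 0.564% lower. For D12 minus D6, 0 of the 9 were called, where 0.094% of all genes were higher and 0.51% lower. For Osr1 the effect was 1.51 log2 units smaller at D8 than at D6 (-1.51 ± 1.049, SE), and at D12 it differed by -2.06 ± 1.03 (SE), with adjusted p of 0.921 and 0.606 by edgeR. The D8 minus D6 value for Osr1 rested on the D8 GLI1 OE libraries: it was -3.86 without library 18 and -0.66 without library 14. Eya4, lower at D6 and higher at D12, had the D12 minus D6 difference with the smallest p of the 9, 1.80 ± 0.66 (SE), with an adjusted p of 0.385. Osr2 at D8 minus D6 gave -3.48 ± 1.53 (SE) with an adjusted p of 0.653. Six2 at D8 minus D6 gave -0.85 ± 1.30 (SE) with an adjusted p of 0.999 by edgeR. The Six2 value ran from -3.64 to 0.032 when 1 library was left out. Gli1 and Ptch1, a Hedgehog receptor gene and direct target, were called lower at D8 than at D6 in this comparison, with adjusted p of 0.0277 and 0.0112 by edgeR. Gli1 is the induced gene, so its fall after the wash follows from the design. These calls do not show that the test could detect differences of the size and spread seen for the 9 genes.

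Along the control series, Six5 was the 1 member that edgeR called between neighbouring days. It stood at 16.3 ± 1.91 CPM at D5 (SD, n = 4), 21.3 ± 2.10 at D6 (n = 3), 32.7 ± 0.435 at D8 (n = 2) and 42.0 ± 2.80 at D12 (n = 2). Each day's libraries lay above those of the day before. From D6 to D8 the log2 change was 0.62 ± 0.19 (SE), with an adjusted p of 0.0200 by edgeR, and this was the 1 call among the 9 genes, with 0 lower, where 17.3% of all genes were higher and 17.5% lower. Leaving out control 15 of D6, or control 13 or 17 of D8, ended this call (adjusted p up to 0.0903). From D5 to D6, 0 of 9 were called (8.39% of all genes higher, 9.99% lower), and from D8 to D12 also 0 of 9 (16.9% higher, 19.4% lower). Fitted on the 2 groups of a step alone, Six2 was also called lower from D6 to D8 (adjusted p 0.00987). From D8 to D12 such a fit called Six2 lower and Eya4 and Osr1 higher (0.0288, 0.0476 and 0.0293). These 2 fits called 5585 of 13960 and 4916 of 13727 genes.

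Six4 moved the other way, from 24.95 CPM at D6 to 17.9 CPM at D8 on average in controls, a log2 difference of -0.48 ± 0.18 (SE) with an adjusted p of 0.0575 by edgeR and 0.0401 by DESeq2, and it was also called without D6 library 3 or D8 library 13 (0.0417 and 0.0389). Six2 was low in all later controls, at 28 and 17 reads at D8 and 2 and 0 at D12. The D12 to D8 ratio was 0.0524 with a 95% exact interval of 0.00616 to 0.201 for counting error, and an adjusted p of 0.0886 by edgeR and 0.00849 by DESeq2. Eya4 was lowest at D6 and highest at D12 among control means, at 2.94 and 7.94 CPM, and its D8 to D12 log2 difference was 1.21 ± 0.51 (SE), with an adjusted p of 0.0776 by edgeR and 0.0473 by DESeq2. Its D5 to D6 difference, -1.02 ± 0.39 (SE, adjusted p 0.0924), was called without D5 library 3, with an adjusted p of 0.0104. Eya3 ranged only from 79.9 to 109 CPM over the 11 control libraries.

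The pulsed series started from the same D5 controls, so its first step shares them with the controls' D5 to D6 step. From D5 control to D6 GLI1 OE, 3 of 9 genes were higher (14.8% of all genes) and 1 was lower (14.7%). Six2 rose by 3.36 ± 0.74, Osr1 by 2.93 ± 0.61 and Osr2 by 3.10 ± 0.84 on the log2 scale (SE), with adjusted p of 0.00368, 0.00262 and 0.0127 by edgeR. The Osr2 value rested on 4 reads over the 4 D5 libraries and 26 over the 3 D6 GLI1 OE libraries. Osr2 had passed the filter mainly through GLI1 OE groups. Eya4 fell by 1.90 on the log2 scale, with an adjusted p of 0.00343, and its 3 GLI1 OE libraries lay below all 4 D5 libraries. These 4 calls held whichever 1 of the 7 libraries was left out, though the adjusted p of Osr2 reached 0.0494. D5 libraries 1 and 2 differed little (chi-square per gene 6.86), and leaving out 1 of them kept the other. No fit merged them, so whether the calls hold with these 2 counted as 1 was not tested. Fitted on these 2 groups alone, Six2, Osr1 and Eya4 were called, where 3645 of 13845 genes were. Osr2 did not pass the filter on low counts in that fit, so it was not tested.

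From D6 to D8 in the pulsed series, 4 of 9 genes fell (19.8% of all genes) and 1 rose (20.3%). Six2 fell by 2.88, Osr1 by 2.34 and Six4 by 0.51 on the log2 scale, with adjusted p of 0.0271, 0.0277 and 0.0383 by edgeR. In controls over the same days, the log2 differences were -2.03 for Six2, -0.83 for Osr1 and -0.48 for Six4, not called by edgeR. Six5 rose by 1.16 ± 0.18 (SE), with an adjusted p of 0.000334, and was called whichever library was left out. Its rise in controls over the same days was 0.62. The difference between these 2 rises was 0.55 ± 0.26 (log2, SE) and was not called, with an adjusted p of 0.736 by edgeR. Osr2 went from 26 reads in 3 libraries to 2 reads in 2, a ratio of 0.118 with a 95% exact interval of 0.0136 to 0.471, and an adjusted p of 0.0428 that missed the threshold under DESeq2 (0.0582) and with no filter (0.0532). Fitted on these 2 groups alone, Six2, Six4 and Osr1 were not called (adjusted p 0.0626 to 0.0833). That fit called 4442 of 13999 genes. Without D6 GLI1 OE library 12 or 16, 2 of the 5 calls were left. Without D8 GLI1 OE library 14 only Six5 was called, and Six2 and Osr1 differed by -2.00 and -1.50. Without library 18, the log2 differences of Six2 and Osr1 were -5.67 and -4.70.

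From D8 to D12 in the pulsed series, 2 of 9 genes rose (15.9% of all genes) and 1 fell (17.5%). Eya4 rose from 2.92 and 3.27 CPM to 11.8 and 18.3 CPM, by 2.28 ± 0.52 on the log2 scale (SE), with an adjusted p of 0.00448 by edgeR, and was called whichever of the 4 libraries was left out. Osr2, which passed the filter mainly through GLI1 OE groups, went from 2 reads to 39. The ratio was 21.3 with a 95% exact interval of 5.51 to 182, and the adjusted p was 0.00904 by edgeR. That call was lost without D8 library 18, with an adjusted p of 0.0544. Eya3 fell by 0.25 on the log2 scale, with an adjusted p of 0.0476, a call lost whichever of the 4 libraries was left out and under limma-voom, other size factors or no filter. Fitted on these 2 groups alone, 0 of the 9 genes were called, with adjusted p of 0.0524 for Eya4 and 0.0554 for Osr2. That fit called 0 of all 13842 genes tested, so the loss is not particular to these genes. Osr1 was not called (0.98 ± 0.79, SE) but was called without library 18, with an adjusted p of 0.0156.

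Paralogues and partners of the 9 genes were not called beside Six2 at D6. Of 11 genes (Six3, Six6, Dach1, Dach2 and 7 Pax genes), 4 were tested and 0 were called at D6 by edgeR, also at an unadjusted p under 0.05, with a median log2 difference of -0.97 against a median of -0.0154 over all genes. Dach1, a transcriptional cofactor gene of the network with its highest mean level, differed by -1.05 ± 0.76 (SE, adjusted p 0.591 by edgeR). At D8 and D12, 0 of the 4 were called by edgeR, also at an unadjusted p under 0.05. All 4 estimates were above 0, with medians of 0.283 and 1.5 against 0.00668 and -0.00384 over all genes. These medians rest in part on few reads and do not give a direction. Pax3 had 4, 3 and 2 reads in D6, D8 and D12 controls and 2, 9 and 11 in GLI1 OE libraries. Its lowest GLI1 OE library was at 0 CPM on all 3 days. Pax6 had 3 reads in D12 controls and 10 in D12 GLI1 OE libraries.

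In the second heart field list, the progenitor field that adds the atrial septum and outflow tract, all 19 genes were tested. None of them was at 0 in the D5 and D6 groups labelled as progenitors, or in any D8 or D12 group, so their presence does not tell the labels apart. At D6, 2 rose and 1 fell, with a median of -0.352. Foxf1 (listed as Foxf1a) and Foxf2, forkhead genes of Hedgehog-responsive mesoderm, rose by 5.13 ± 0.95 and 5.15 ± 1.22 (log2, SE; adjusted p 0.00627 and 0.0270 by edgeR). Gas1, whose product helps Hedgehog ligands bind, fell by 1.25 (adjusted p 0.0103). At D8 and D12, 0 of the 19 were called by edgeR, and 5 and 1 lay under an unadjusted p of 0.05. Foxf1 was at 0.133 and 0.697 CPM in D8 controls and at 2.13 and 21.1 CPM in D8 GLI1 OE libraries, with an adjusted p of 0.489. Foxf2 was at 0.0442 and 0.0872 CPM in D8 controls and at 0.509 and 20.1 CPM in D8 GLI1 OE libraries, also with an adjusted p of 0.489. Both genes thus lay higher without overlap at D8, and the 2 GLI1 OE libraries differed widely. Mef2c, the list's most abundant gene, differed by -0.10 at D8 and -0.25 at D12.

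Markers of tissues that use Six2, Eya1 and Osr1 elsewhere were uneven. Of 11 intermediate mesoderm and nephron progenitor genes, 9 were tested and 1 rose at D6: Gdnf, the ureteric bud growth factor gene, by 5.53 ± 0.68 (log2, SE; adjusted p 0.000244 by edgeR). The list's median was -0.853, and Pax2 and Pax8, which define the nephric lineage, were too low to test. Its summed level ran from 91.3 to 126 CPM in D6 controls and from 154 to 201 CPM in D6 GLI1 OE libraries. At D8 and D12, 0 of its genes were called, and Itga8 was its most abundant gene. Of 9 skeletal muscle and somite genes 4 were tested, and of 9 placode and neural crest genes, among them Dlx5, 3 were tested; 0 were called by edgeR at D6, D8 or D12. Under an unadjusted p of 0.05 lay 2 of the muscle and somite genes and 1 of the placode and neural crest genes at D12, and 0 of either list at D6 or D8.

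Cardiomyocyte markers lay lower and 2 endoderm markers rose in the D6 libraries with high Six2 and Osr1. The 8 cardiomyocyte genes had a median of -1.58 at D6, with all 8 estimates below 0 and 0 called; Myh6, the most abundant, differed by -2.23 ± 0.96 (log2, SE; adjusted p 0.261 by edgeR). Their summed level was 4027 to 10086 CPM in D6 controls and 1174 to 3957 CPM in D6 GLI1 OE libraries. Of 7 endoderm genes 6 were tested and 2 rose at D6, Foxa2 by 7.43 ± 0.97 and Alb by 5.54 ± 1.03 (log2, SE; adjusted p 0.000420 and 0.0171). Foxa2 is also a Hedgehog target gene of the floor plate. At D8 and D12, 0 genes of either list were called. The part of these cell types in the rise of Six2 and Osr1 was not tested.

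The genes whose log2 CPM followed each member most closely over the 18 libraries were described by Pearson's r, without a test. The libraries share groups, so r mixes day, pulse and library. Osr1 was followed by Ntng1 (r = 0.906), Cldn1 (0.891) and Zdhhc14 (0.882). Six2 was followed by Tmem132e (r = 0.873), Pard6g (0.864) and Magel2 (0.860). Eya1 had Nudt3 (r = 0.855), Egflam (0.823) and Rfesd (0.790), and Eya4 had Rev3l (0.940), Rarb (0.911) and Akap7 (0.907).

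Six5 had Adcy4 (r = 0.967), Gpr124 (0.966) and Lrp5 (0.959), and Six4 had Ipmk (0.917), Dhx33 (0.905) and Prps1 (0.900). Eya3 had Zfp207 (r = 0.964), Sltm (0.949) and Gabpb2 (0.948). The low genes had Chchd6 (r = 0.824), Cdh10 (0.804) and Fam188b (0.799) for Osr2, and St8sia4 (0.866), Nsg1 (0.840) and Asphd2 (0.830) for Eya2. These values for Eya2 and Osr2 rest on few reads in most libraries.

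The authors' deposited tables give each comparison its own values. At D6 their full table lists Six2 at a log2 fold change of 3.41 and Osr1 at 3.11, with adjusted p of 1.85e-68 and 1.81e-16. Their list of changed genes at D6 holds Six2, Osr1, Eya1 and Eya4, the last at -1.14, although Eya4 has an adjusted p of 0.168 in their full table. At D12 Six2, Eya2 and Osr2 have no row in the authors' deposited table, so the reads that separate library 20 for Six2 and Eya2 appear in the count table alone.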

How the data were processed

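The authors deposited raw read counts per gene symbol for 18 libraries. No source used here gives the aligner, counting program, use of strand or genome build. The members share no exon with another gene in GENCODE M21. TPM for D5, and tables of log2 fold changes with p-values and adjusted p-values, were deposited by the authors and are named where used. Tests on the counts used edgeR 4.0.16 (R 4.3.3): expression filter with a minimum count of 10, TMM scaling, and a robust quasi-likelihood fit with 1 coefficient per group over all 18 libraries, Benjamini-Hochberg adjusted over 14892 genes. CPM are scaled by TMM. DESeq2 1.42.0, limma-voom (limma 3.58.1), other scaling, filters, sample sets and each library left out were alternatives. The procedure was tested on simulated data. Named genes are the 9 members; up to 3 called genes per list, or else its most abundant; and the 3 genes closest to each member by r. The members and the 7 gene lists were chosen with earlier results of these data known. A gene of 1 list is not reported here and was left out of its counts and medians. Count columns carry library numbers and no replicate numbers. At D6, adjacent-numbered control and GLI1 OE libraries deviated together (r of 0.617, 0.445 and 0.520, against -0.431 to 0.0208 for other pairs), so they were also fitted as pairs.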

Additional observations from a re-analysis of the deposited data

How the results depend on the processing

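With 2 or 3 libraries per group, the counts of called genes moved. At D6 the 2 calls stood under DESeq2, limma-voom, other size factors, no filter and the replicate block of adjacent libraries (Six2 3.42, adjusted p 0.0202; Osr1 3.24, 0.0263), became 3 with only the groups compared, and fell to between 0 and 1 when a library was left out. The block changed no other call among the members; a D12 crossing of the pairs, chosen after seeing the data because adjacent D12 libraries deviated oppositely (r of -0.231), gave the same counts of 2, 0 and 0 at D6, D8 and D12, while all genes called at D6 went from 616 to 667 with the block and 859 with the crossing. DESeq2 called 2 members at D12, 2 for controls D8 over D6 and 2 for controls D12 over D8. With only the groups compared, 2 were called for controls D8 over D6 and 3 for controls D12 over D8. The same setting gave 3 in place of 4 for GLI1 OE D6 over D5 control and 2 for GLI1 OE D8 over D6. It gave 0 for GLI1 OE D12 over D8, where 0 of all 13842 genes were called. Leaving out 1 library gave 0 to 1 for controls D6 over D5, 0 to 2 for controls D8 over D6 and 1 to 5 for GLI1 OE D8 over D6. Among the GLI1 OE over control differences, signs turned for uncalled values when a library was left out: at D6 Six5 ran from -0.18 to 0.070; at D8 Six2 from -0.24 to 3.43, Six4 from -0.079 to 0.38, Eya2 from -2.50 to 2.55, Eya4 from -0.47 to 0.24 and Osr1 from -0.77 to 2.43; at D12 Six4 from -0.029 to 0.40, Six5 from -0.067 to 0.61 and Eya3 from -0.064 to 0.055. Uncalled differences not described above turned too, such as Eya2 for the D8 minus D6 effect, from 0.71 to -0.28 with the replicate block. Over 53 of the reported differences, called or not, 547 of 613 alternative values kept direction and side of the threshold. An uncalled difference that stayed uncalled with the same sign counts as kept, so this share does not measure how well the calls held. Of the other values, 40 lost a call, 13 gained one and 13 changed sign. Depth limits Osr2, Eya2 and late Six2, which rest on few reads.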
